A study of Mus musculus with 6 samples.

Results

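Shores are the flanks of CpG-dense, unmethylated DNA. They were taken here as 1 kb windows of the 19 autosomes that held 3 to 9 measured CpG sites and lay 1 or 2 windows away from a window with 20 or more measured sites and a median methylation level under 5%. A site was measured where at least 10 reads covered it in each of 6 libraries, and its level is the share of covering reads that were methylated, averaged over the libraries. The shores were chosen by these values, so the low level of the neighbouring dense window belongs to the choice and is no finding, whereas a shore's own level was not used. The rule gave 4227 shores with 22326 CpG sites, which is 4.71% of the 89674 windows tested and 6.26% of the 67556 autosomal windows of 3 to 9 sites. Of these, 3172 lay directly beside a dense window and 1055 lay 2 windows away. They flanked 3999 of 10232 unmethylated dense windows, and a shore held a median of 5 sites against 34 in a dense window.

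The libraries came from kidney cortex and outer medulla of male, wild type C57BL/6J mice and were made by reduced representation bisulfite sequencing, an assay in which the enzyme MspI cuts the DNA, short fragments are selected, and bisulfite then tells methylated from unmethylated cytosines. Unilateral ureteral obstruction (UUO) is a surgical model of kidney fibrosis. The group called saline here had the left ureter tied and cut for 7 days and is labelled with saline, the group called 5AZA had the same obstruction with the agent that the labels name 5AZA at 1 mg/kg per day in saline into the abdomen, and the sham group had surgery without ligation. Each group held 2 libraries. Sham 1 was the sham for the obstruction, whereas the label of sham 2 ties it to kidney ischemia/reperfusion and names a time shorter than 7 days. The sham libraries may thus not be matched in time. The labels do not say that libraries came from separate mice, so every p measures the spread among these 6 libraries alone, and that spread may be technical.

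Covering reads summed over CpG sites ranged from 37584220 in sham 2 to 76587612 in saline 1. The median shore had 157 covering reads in sham 2 and between 246 and 298 in the other libraries. Neighbouring sites are often covered by the same reads, and the assay carries no molecular identifiers, so these totals are not counts of separate molecules. Sham 2 had the lowest level of the 6 libraries in shores under 80%, and mean differences between saline and sham are given with and without it. The tissue holds many cell types, and a change within cells and a change in the mix of cells cannot be told apart here.

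In mammals most CpG sites carry a methyl group, while CpG islands, the CpG-rich stretches at many gene starts, stay free of it. Shores are the less CpG-rich flanks of islands, where the unmethylated state gives way to the methylated state of the surrounding genome. They are known as places where methylation often differs between tissues and cell states.

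The dense windows were tied to genes by their CpG spacing. A RefSeq promoter was placed where the spacing of its CpG sites matched the measured positions at 1 place on its chromosome, which put 9411 promoters of 8329 genes on the autosomes. A placed start lay in the shore itself or in its dense window for 2390 shores and 2367 genes. The 4 promoters printed here belong to genes beside shores that passed a test between groups, and they show the kind of sequence a shore flanks and the places where the assay cuts. Phlda2 is an imprinted gene that restrains growth of the placenta, Numbl encodes a Numb-like adaptor protein of the Notch pathway, Smyd2 encodes a lysine methyltransferase, and Eef2 encodes a translation elongation factor. Each sequence runs from 250 bases before to 50 bases after the gene's start on the gene's own strand, as RefSeq gives it in a table of build GRCm38.p6. The letters CCGG, which MspI recognises, are in capitals.
Phlda2: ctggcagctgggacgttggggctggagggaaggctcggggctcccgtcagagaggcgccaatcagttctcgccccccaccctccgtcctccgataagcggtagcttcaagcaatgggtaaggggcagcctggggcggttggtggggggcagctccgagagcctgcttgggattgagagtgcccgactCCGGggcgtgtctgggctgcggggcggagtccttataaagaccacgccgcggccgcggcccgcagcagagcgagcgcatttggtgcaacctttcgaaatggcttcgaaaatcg
Numbl: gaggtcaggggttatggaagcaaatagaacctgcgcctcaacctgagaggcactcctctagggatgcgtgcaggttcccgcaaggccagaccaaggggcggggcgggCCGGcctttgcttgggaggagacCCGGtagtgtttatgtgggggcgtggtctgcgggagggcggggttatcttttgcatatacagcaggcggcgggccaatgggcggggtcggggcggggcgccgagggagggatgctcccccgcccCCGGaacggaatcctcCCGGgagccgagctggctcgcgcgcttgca
Smyd2: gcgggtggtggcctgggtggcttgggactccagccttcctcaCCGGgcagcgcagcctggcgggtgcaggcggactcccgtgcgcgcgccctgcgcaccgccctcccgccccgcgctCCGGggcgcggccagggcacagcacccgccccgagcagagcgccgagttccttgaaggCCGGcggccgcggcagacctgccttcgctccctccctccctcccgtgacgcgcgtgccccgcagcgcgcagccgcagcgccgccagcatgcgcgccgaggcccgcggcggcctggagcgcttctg
Eef2: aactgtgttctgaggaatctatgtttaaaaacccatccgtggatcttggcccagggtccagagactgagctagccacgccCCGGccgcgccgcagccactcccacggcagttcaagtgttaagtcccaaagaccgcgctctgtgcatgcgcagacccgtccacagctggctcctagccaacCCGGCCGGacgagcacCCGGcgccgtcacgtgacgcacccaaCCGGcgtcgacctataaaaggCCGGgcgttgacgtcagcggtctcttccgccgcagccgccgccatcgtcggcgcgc
On mm9, the build of the files, the Phlda2 promoter matched chr7:150688380-150688679 on the minus strand, the Numbl promoter chr7:28043530-28043829 on the plus strand, the Smyd2 promoter chr1:191746121-191746420 on the minus strand and the Eef2 promoter chr10:80639126-80639425 on the plus strand. The letters CCGG, which read the same on both strands, occur in 52.8% of 32851 promoters of that table. In the Smyd2 promoter the 3 measured CpG sites inside CCGG had a mean level of 73.5%, whereas 30 other sites averaged 1.78%. In the Eef2 promoter 3 such sites averaged 73.9% and 18 others 1.21%.

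The same split was present in the shores where they reached into a placed promoter and their sequence was thus known. In such shores with an own level under 5%, the 344 CpG sites inside CCGG averaged 73.4% and all 344 had a level of 30% or more. The 1235 other sites of such shores averaged 1.77%, and none of them reached 30%. CCGG sites of these shores stood at 74.7% and 74.9% in the saline libraries, 73.4% in sham 1, 70.3% in sham 2, and 73.6% and 73.2% in the 5AZA libraries. The other sites stood at 2.08% and 2.28%, 1.68%, 0.834%, and 1.89% and 1.84% in the same order, so sham 2 was lowest at both kinds of site. Per the labels' protocols, end repair after the MspI cut used methylated dCTP. Its part in the level at CCGG was not tested. The same 2 kinds of site differed in the dense windows, at 72.4% over 12978 CCGG sites and 1.92% over 72106 others.

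**Figure D1:**
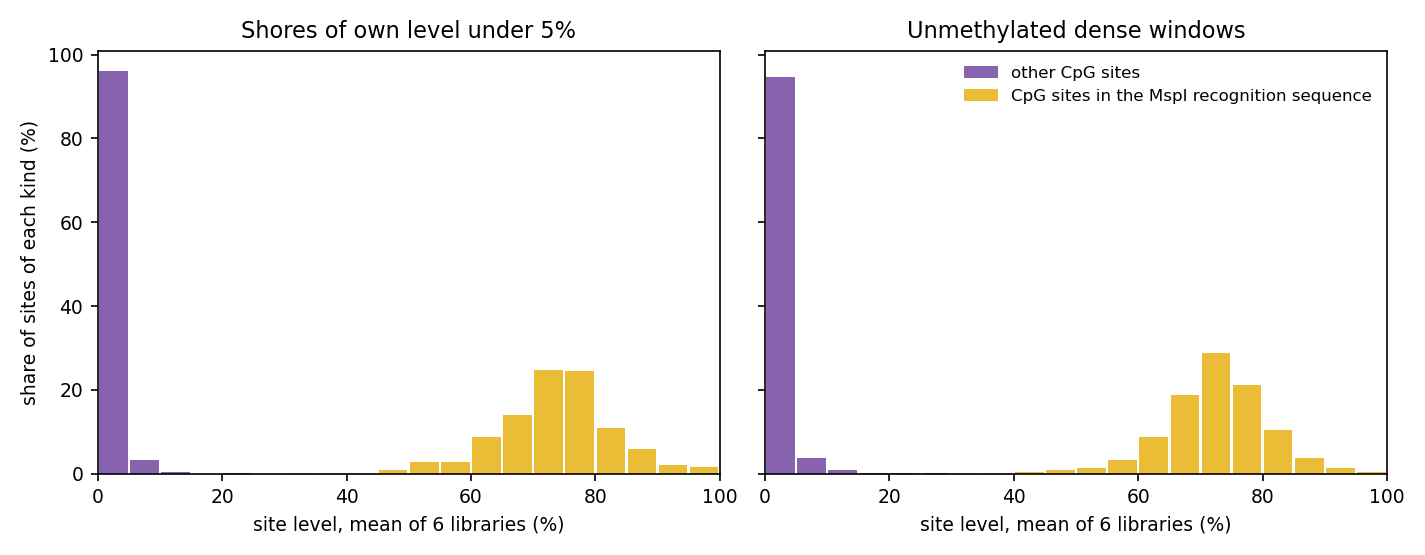
Share of CpG sites (%) by their level averaged over the 6 libraries (%), for shores of own level under 5% (left) and unmethylated dense windows (right), with sites inside the MspI recognition sequence and other sites drawn apart, each kind summing to 100%. In the shores the CCGG sites averaged 73.4% and the other sites 1.77%, with no other site at 30% or more.

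A shore's own level, the median over its sites, is little moved by 1 such site among several, while the level over all reads of a window includes it. In the 1849 shores of 3 to 4 sites, more than 1 such site can move the median as well. Sites inside CCGG are included in the levels by class, distance, flank and CpG number given below, and their part there was not tested. In the shores under 5%, 2580 of 9938 sites (26.0%) had a level of 30% or more, in 1619 of the 1653 windows, whether or not their sequence was known. Levels over all reads in this class were accordingly near 20% in every library, as given below.

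Unmethylated shores were the most frequent kind. Own levels were under 5% in 1653 shores (39.1%), 5 to 20% in 438 (10.4%), 20 to 80% in 1341 (31.7%) and 80% or more in 795 (18.8%). Remote windows, which are the 56718 autosomal windows of 3 to 9 sites more than 10 windows from any unmethylated dense window, were under 5% in 3.48% and at 80% or more in 73.3%. The median own level was 22.0% in shores and 90.5% in remote windows. Windows are not replicates, so these shares are a description of the genome in these 6 libraries.

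**Figure D2:**
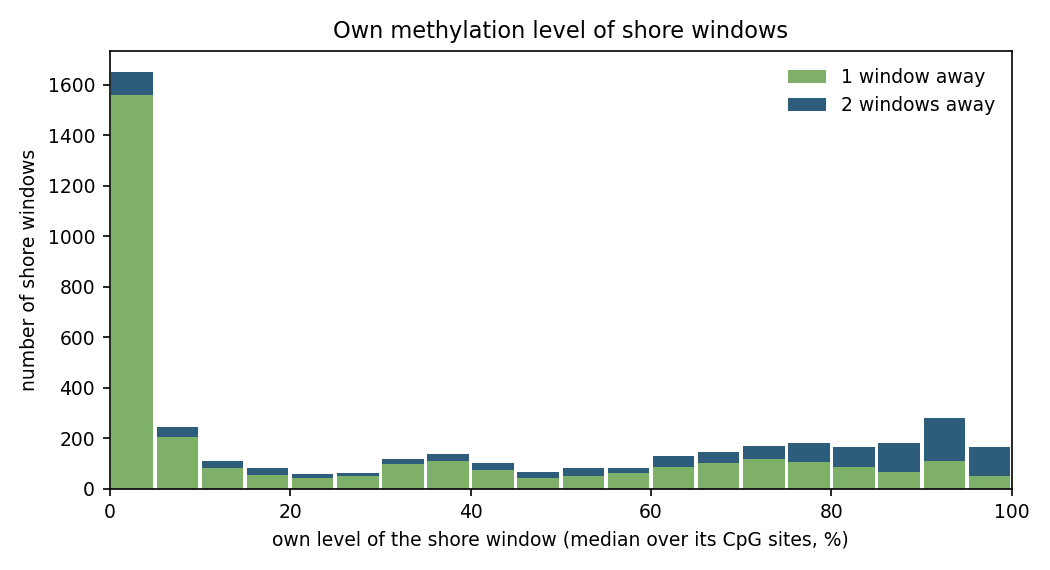
Number of shores by own methylation level (median over the sites of the window, mean of 6 libraries, %), stacked by distance from the dense window. The bar under 5% holds 1653 shores, of which 1562 lie 1 window away.

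The level of a shore rose with its distance from the dense window. Directly beside a dense window 49.2% of shores were under 5% and 9.90% were at 80% or more, with a median of 5.22%. At 2 windows away 8.63% were under 5% and 45.6% at 80% or more, with a median of 76.8%. The median own level 1 window away was 7.60% and 7.45% in the saline libraries, 6.22% in sham 1, 5% in sham 2, and 6.21% and 6.41% in the 5AZA libraries. At 2 windows away it was 78.7% and 79.7%, 77.4%, 73.3%, and 75% and 73.9% in the same order. The step from one distance to the next was thus present in each of the 6 libraries and many times wider than the spread between them.

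In 262 places both positions on one side of a dense window held a shore. The outer window was the more methylated one in 190 of them (72.5%), with medians of 16.1% inside and 71.1% outside. In 44 of these pairs the level passed from under 5% to 80% or more within 2 windows, and in 21 both were under 5%.

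The 2 flanks of a dense window were often unlike. Of 239 dense windows with a shore directly on both sides, 80 (33.5%) had both in the same level class, and in 100 one side was under 5% while the other was at 20% or more. The median difference between the sides was 31.5 percentage points. Of all shores directly beside a dense window, 49.2% were under 5%, 10.8% at 5 to 20%, 30.0% at 20 to 80% and 9.90% at 80% or more. Whether the flanks of 1 dense window are less or more alike than shores of unrelated dense windows was not tested.

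Site by site, the level rose steeply within the first 750 bp. Distance was counted from the outermost measured site of the dense window. Sites within 250 bp had a median level of 2.44%, sites at 250 to 500 bp 20.8%, and sites at 500 to 750 bp 60.5%. After that the median was 67.9% at 750 to 1000 bp and 67.4% at 1000 to 1250 bp, then rose through 75.8% to 79.7% and to 82.0% at 1750 to 2000 bp, and was 79.8% and 78.1% in the next bins out to 2500 bp. The share of sites under 5% fell from the first bin to that at 1750 to 2000 bp from 63.4% to 7.94%, while the share of sites at 80% or more rose from 7.95% to 53.0%. The dense windows' own sites had a median of 1.65%. At 500 to 750 bp the median was 60.5% in both saline libraries, 61.5% in sham 1, 53.3% in sham 2, and 58.3% and 59.9% in the 5AZA libraries. At 1750 to 2000 bp it was 84.5% and 84.7%, 83.3%, 80%, and 80% and 78.4%, where both 5AZA libraries and sham 2 lay below the other 3.

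**Figure D3:**
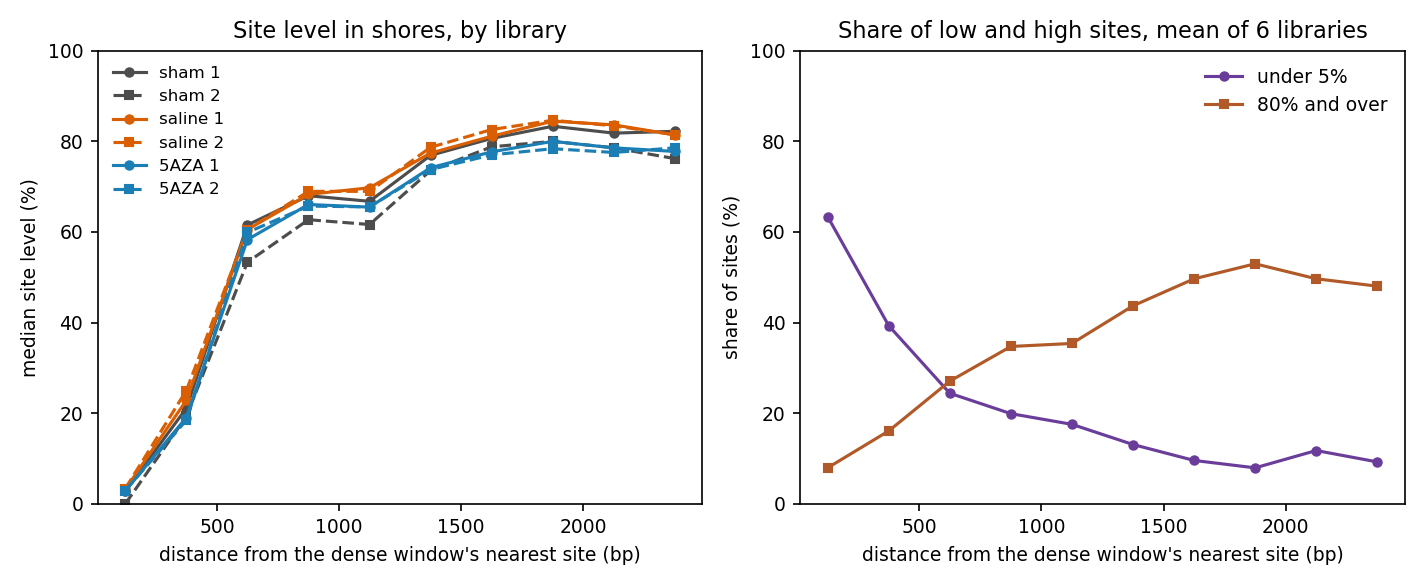
Median site level in shores (%) by library against distance from the nearest site of the dense window in bins of 250 bp (left), and the share of sites under 5% and at 80% or more with levels averaged over the 6 libraries (right). Levels rise from 2.44% within 250 bp to 82.0% at 1750 to 2000 bp in the mean of the libraries.

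CpG number went with the level as well. Shores of 7 to 9 sites were under 5% in 58.8% and had a median of 3.37%, whereas shores of 3 to 4 sites were under 5% in 23.0% with a median of 62.0%. Both features held at once. Directly beside a dense window the medians were 2.80% with 7 to 9 sites and 38.5% with 3 to 4 sites, and at 2 windows away 46.5% and 83.6%. Sites inside CCGG are included here, and a few of them can set the median in shores of 3 to 4 sites. Their part in the contrast by CpG number was not tested.

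Shores upstream and downstream of a gene start had similar levels. Where a gene start was placed in the dense window, the 652 shores directly upstream had a median of 5.15% and the 782 directly downstream 5.06%. At 2 windows away the medians were 78.4% over 193 upstream and 81.1% over 222 downstream shores. Beside dense windows with starts on both strands the medians were 2.5% over 239 shores directly adjacent and 85.1% over 64 shores 2 windows away. Beside dense windows with no placed start they were 6.64% over 1479 and 72.1% over 568 shores.

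Own levels just inside and just outside the rule's limits describe what it left out. Windows 3 and 4 windows away, just outside it, had medians of 85.2% and 87.4%. Windows of 2 sites had a median of 75.6% against 71.3% with 3 sites, and windows of 10 sites 2.36% against 2.76% with 9. Shores of dense windows with 20 to 21 sites had a median of 5.54%, against 5.20% beside windows of 18 to 19 sites. Dense windows with a median of 4 to 5% had 61 adjacent shores with a median of 23.3%, and those of 5 to 6%, just outside, had 41 with a median of 30.4%.

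Shores of 20 to 80% were of different make. Of 1341, 516 (38.5%) held at least 1 site under 5% next to higher sites, whereas among remote windows of that level 9.13% did. Where the sequence was known, 55 CCGG sites in shores of 20 to 80% averaged 73.9% and 63 other sites 9.23%, so a shore can reach this class through its CCGG sites.

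The first comparison asked which shores changed in methylation after 7 days of obstruction. Averaged over all shores, the level over all reads was 45.6% and 46.0% in the saline libraries, 45.1% in sham 1 and 42.7% in sham 2. The saline libraries were the 2 highest of these 4, by 0.691 percentage points against sham 1 alone and by 3.11 against sham 2 alone. The group means were 45.8% ± 0.306 and 43.9% ± 1.71 (SD, n = 2 each), and the exact two-sided permutation test over libraries gave p = 0.33 for the difference of 1.90 points, the smallest p that 2 against 2 can give.

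Shores of intermediate level differed by the most. In shores of 20 to 80% the saline libraries stood at 54.5% and 55.2%, sham 1 at 53.5% and sham 2 at 50.4%, a difference of 2.91 points (exact permutation p = 0.33) of which 1.34 remained without sham 2. Shores of 5 to 20% differed by 2.30 points and 1.07 without sham 2, and shores of 80% or more by 1.32 and 0.792 (exact permutation p = 0.33 each). In shores under 5% the libraries overlapped in the level over all reads, with 21.7% and 22.2% in saline, 21.9% in sham 1 and 19.4% in sham 2. Their difference of 1.25 points (exact permutation p = 0.67) shrank to 0.0176 without sham 2. Averaged over the sites of this class instead, the groups did not overlap, at 21.2% and 21.3% in saline, 20.5% in sham 1 and 18.9% in sham 2. Its sites of 30% or more stood at 75.7% and 75.8%, 74.0%, and 70.0% in the same order. Its sites under 30% stood at 2.16% and 2.20%, 1.80%, and 0.978%. The lower level of sham 2 at CCGG sites and at other sites alike, given above, went with these differences, and its part in them was not tested. Within the 20 to 80% class, the 825 shores with no site under 5% differed by 3.77 points, and by 2.11 without sham 2. In the 516 with such a site the libraries overlapped, at 43.8% and 44.9% in saline, 44.2% in sham 1 and 41.3% in sham 2, and the difference of 1.55 points shrank to 0.111 without sham 2.

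No single shore passed the test between saline and sham. edgeR's quasi-likelihood test on methylated and unmethylated reads with Benjamini-Hochberg adjustment over all windows called 0 of 4227 shores, beside 45 of 89674 windows tested (0.0502%). At an unadjusted p under 0.05 it gave 272 shores (6.43%), 229 higher and 43 lower in saline, against 10.4% of all windows. limma called 0 as well and had 241 at an unadjusted p under 0.05. Both saline libraries were above both sham libraries in 1392 shores (32.9%, against 32.3% of all windows) and below both in 283 (6.70%, against 9.72%). The share above was thus close to that of all windows, and the share below and the share at an unadjusted p under 0.05 were smaller. The median difference was 1.61 points over shores and 1.13 over all windows. Without sham 2, edgeR called 0 shores and 198 had an unadjusted p under 0.05.

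The shores with the smallest p serve as examples of differences that did not pass. The shore at chr17:28362001-28363000, of 9 sites and with no gene placed, stood at 26.9% and 22.5% in saline, 12.5% in sham 1 and 14.7% in sham 2 (edgeR adjusted p = 0.0765). The Phlda2 shore described below came next at 0.113 by the same test. Among shores lower in saline, the smallest p was that of chr8:24319001-24320000 (edgeR adjusted p = 0.130). Its values and the shift in where its reads lay are described below. Next was a shore at chr8:86726001-86727000, with 43.3% and 38.4% in saline against 61.0% and 57.7% in sham (edgeR adjusted p = 0.140).

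The second comparison asked which shores changed when obstructed kidneys received 5AZA; it shares the saline libraries with the first, so the 2 sets of differences are not independent. Averaged over all shores, the 5AZA libraries stood at 43.9% and 44.0%, below both saline libraries at 45.6% and 46.0%. The difference was -1.85 points (exact permutation p = 0.33), with group means of 44.0% ± 0.0614 for 5AZA and 45.8% ± 0.306 for saline (SD, n = 2 each).

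The fall grew with the level of the shore. In shores of 80% or more the 5AZA libraries stood at 84.6% and 83.6% against 88.3% and 88.2% in saline, a difference of -4.11 points (exact permutation p = 0.33). The sham libraries of this class, at 87.4% and 86.4%, lay between them. In shores of 20 to 80% the values were 52.1% in both 5AZA libraries against 54.5% and 55.2% in saline, or -2.77 points, and in shores of 5 to 20% the difference was -1.09 (exact permutation p = 0.33 each). Shores under 5% had overlapping libraries in the level over all reads, 21.4% and 22.0% with 5AZA against 21.7% and 22.2%. The difference of -0.220 points (exact permutation p = 0.67) turned to 0.0755 without 5AZA 1 and was -0.000158 without saline 2. Averaged over the sites of this class instead, both 5AZA libraries stood at 20.7%, below saline at 21.2% and 21.3%. Its sites of 30% or more stood at 74.3% and 74.2% with 5AZA against 75.7% and 75.8%. Its sites under 30% stood at 1.92% and 1.91% against 2.16% and 2.20%. Shores of 20 to 80% that held a site under 5% differed by -0.543 points with overlapping libraries, while those without such a site differed by -4.16.

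**Figure D4:**
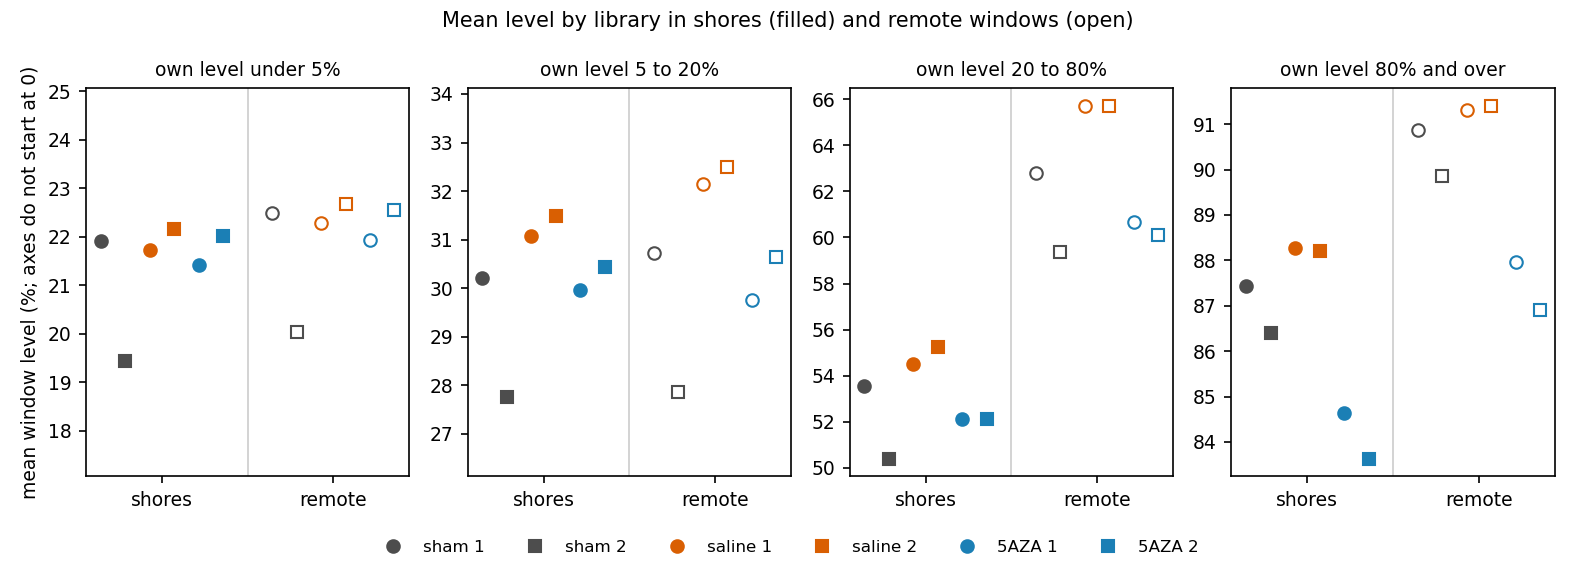
Mean level over all reads (%) of each library in shores (filled) and remote windows (open), in 4 panels by own level, with axes that do not start at 0. In shores of 80% or more the 5AZA libraries, at 84.6% and 83.6%, lie under all 4 other libraries, and in shores under 5% only sham 2, at 19.4%, lies apart.

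In the shores of 80% or more, both 5AZA libraries were below both saline libraries in 461 of 795 (58.0%) and above both in 22 (2.77%), against 60.9% and 1.89% of remote windows of that level. Over all shores, both were below in 1437 (34.0%, against 49.1% of all windows) and above in 382 (9.04%, against 5.69%). The median difference was -1.32 points in shores and -2.70 over all windows. Over all levels the shores thus held a smaller share of windows that were lower in both 5AZA libraries, while at 80% or more the share was near that of remote windows.

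edgeR's quasi-likelihood test with Benjamini-Hochberg adjustment over all windows called 19 shores (0.449%), against 1.58% of all windows. Of these, 18 were lower with 5AZA (0.426%, against 1.58% lower among all windows) and 1 was higher. At an unadjusted p under 0.05 there were 389 (9.20%), 363 lower and 26 higher, against 23.2% of all windows. By class, 15 of the 19 lay at 80% or more, 3 at 20 to 80%, 0 at 5 to 20% and 1 under 5%. The share called at 80% or more was 1.89% in shores and 1.84% in remote windows. The count was 15 without 5AZA 1, 2 without sham 1 or without sham 2, and 0 without saline 1, saline 2 or 5AZA 2, so all libraries but 5AZA 1 moved it by more than 1.5 times. limma called 0 shores (353 at an unadjusted p under 0.05), the fit on the 4 libraries compared called 2, and the fit without candidate fragment-end sites, those with coverage within 5% of the sum of both neighbouring sites, called 0 (368 at an unadjusted p under 0.05).

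The Phlda2 shore had the widest fall among those that passed. It lies upstream of the printed promoter, 2 windows from its dense window, at chr7:150690001-150691000, and holds 3 sites. The level over all reads was 90.5% and 89.7% in saline, 71.0% and 71.9% in sham, and 67.2% and 67.9% with 5AZA (difference between 5AZA and saline -22.5 points, edgeR adjusted p = 0.0388). Both saline libraries were high and the other 4 lay together below them. The middle of the 3 sites, at position 150690120, had the widest difference, with 82.2% and 84.2% in saline, 54.5% and 57.9% in sham, and 35.0% and 33.3% with 5AZA, from 18 to 45 reads per library. At all 3 sites both 5AZA values were under both saline values. The sites lie close together with nearly equal read counts, so they are not independent.

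The Numbl shore lies upstream of its promoter, directly beside the dense window, at chr7:28042001-28043000. Its 8 sites gave 59.0% and 60.2% in saline, 46.4% in sham 1 and 38.6% in sham 2, and 42.4% and 43.0% with 5AZA (edgeR adjusted p = 0.0438 for 5AZA against saline and 0.128 for saline against sham). Here too both saline libraries were above the other 4. At all 8 sites both 5AZA values were under both saline values. The 3 sites with a mean under 30% stood together at 37.3% and 40.5% in saline, 25.1% and 11.4% in sham, and 16.3% and 18.1% with 5AZA.

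The Smyd2 shore, of 9 sites upstream at chr1:191748001-191749000, stood at 87.1% and 87.5% in saline, 82.1% in sham 1, 73.4% in sham 2, and 74.8% and 74.9% with 5AZA (edgeR adjusted p = 0.0438). Of its 9 sites, 8 had a lower mean with 5AZA and 6 did not overlap between the groups. A shore with no gene placed at chr3:96503001-96504000, also of 9 sites, gave 69.7% and 68.1% in saline, 58.8% and 54.2% in sham, and 56.6% and 56.1% with 5AZA (edgeR adjusted p = 0.0396). In both shores the saline libraries were the highest of the 6.

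Neighbouring shores fell together in 2 places. In the first place a dense window held the start of Gm16576, a predicted gene. The next window inward held the start of Sun2, which encodes a protein of the nuclear envelope. Directly beside the Gm16576 window, the shore at chr15:79574001-79575000 stood at 87.9% and 90.4% in saline, 83.8% and 89.4% in sham, and 77.0% and 71.0% with 5AZA. The next shore outward, at chr15:79575001-79576000, stood at 86.5% and 85.6% in saline, 74.4% and 76.5% in sham, and 62.2% and 74.9% with 5AZA. edgeR adjusted p-values were 0.0475 and 0.0326, and 0.0502 and 0.385 with a coverage minimum of 20. Averaged site by site, the outer shore had 86.6% and 84.8% in saline and 65.0% and 69.6% with 5AZA. Downstream of Eef2 the shore at chr10:80640001-80641000 stood at 85.7% and 85.8% in saline, 85.7% and 84.2% in sham, and 80.1% and 76.5% with 5AZA, and the next at chr10:80641001-80642000 at 90.7% and 91.5%, 91.3% and 91.6%, and 87.4% and 86.1%. The Eef2 shores had the smallest adjusted p of all shores by edgeR, 0.0261 and 0.0246, with differences of -7.47 and -4.35 points. They were also read far more deeply than other shores, with 2251 to 9611 covering reads per library, whereas the 99th percentile over shores and libraries was 969 reads. In the first of them 2 of the 4 sites had 1166 to 3307 reads per library and the other 2 had 17 to 57.

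**Figure D5:**
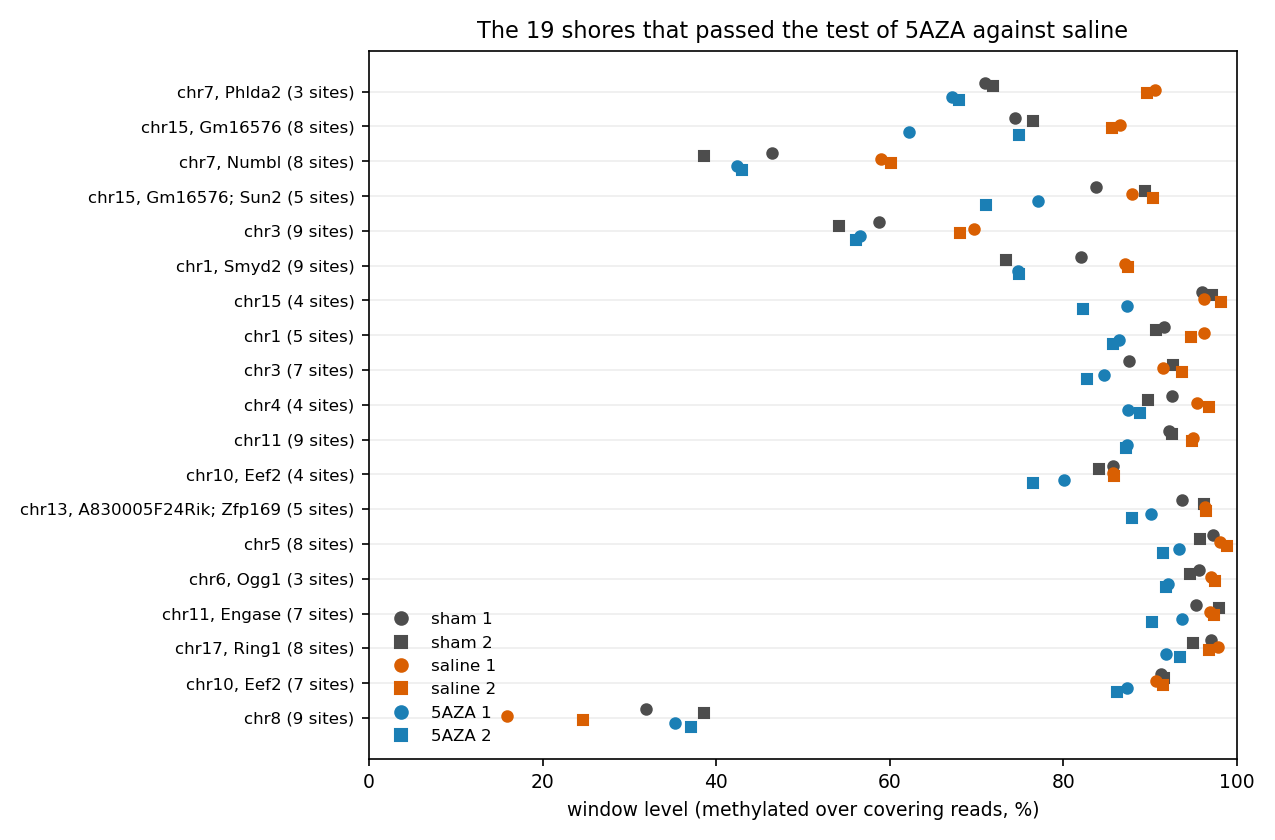
Level over all reads (%) in each of the 6 libraries for the 19 shores that passed edgeR's test of 5AZA against saline, named by chromosome, placed gene and number of sites and ordered by the size of the difference. In 18 both 5AZA libraries lie left of both saline libraries, and the shore on chromosome 8 at the bottom lies the other way.

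The remaining 10 falls lay in shores of 80% or more, with differences of -4.68 to -12.4 points. They included shores upstream of Ogg1, which encodes a DNA repair glycosylase, and downstream of Engase, which encodes a deglycosylating enzyme, and of Ring1, which encodes a Polycomb ubiquitin ligase. The Ogg1 shore stood at 97.1% and 97.4% in saline, 95.6% and 94.6% in sham, and 92.0% and 91.8% with 5AZA (edgeR adjusted p = 0.0472). The Ring1 shore stood at 97.8% and 96.7%, 97.0% and 95%, and 91.8% and 93.4% (edgeR adjusted p = 0.0454). Another shore lay beside the dense window with the starts of A830005F24Rik and the zinc finger gene Zfp169. All 5 of its sites were lower in both 5AZA libraries, with 90.1% and 87.9% against 96.3% and 96.4% in saline. In all 10 of these shores both 5AZA libraries lay below the other 4.

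The 1 rise came with a shift in where the reads lay. The shore at chr8:24319001-24320000, of 9 sites, had 15.8% and 24.7% in saline, 31.9% and 38.6% in sham, and 35.3% and 37.1% with 5AZA over all reads (difference 15.9 points, edgeR adjusted p = 0.0388). Averaged site by site instead, it had 30.5% and 29.2%, 32.3% and 31.5%, and 32.1% and 30.3%, and a difference of 1.28 points. The site at position 24319996 was nearly fully methylated in every library, between 96.1% and 100%, and its coverage was 14 and 154 reads in saline, 166 and 178 in sham, and 232 and 321 with 5AZA. Sites of 30% or more held 18.1% and 27.3% of the window's reads in saline and 36.3% and 37.9% with 5AZA. Averaged site by site, the 18 falls kept their direction, with differences of -2.90 to -22.7 points.

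Shores of 20 to 80% differed between groups by less than remote windows of that level. With own-level classes weighted as in the shores, the level of shores minus that of remote windows was -4.47 and -4.24 points in saline, -3.86 and -3.75 in sham, and -3.52 and -3.39 with 5AZA. The groups did not overlap. Saline differed from sham by -0.553 points (-0.497 without sham 2), and 5AZA from saline by 0.90 points (exact permutation p = 0.33 each, the smallest possible). In windows of 20 to 80% the difference between saline and sham was 2.91 points in shores and 4.63 in remote windows (1.34 and 2.93 without sham 2), and that between 5AZA and saline was -2.77 and -5.35. The 2 sets are unlike within this class, with median own levels of 57.6% and 67.2%. Among its windows with no site under 5%, saline and sham differed by 3.77 and 4.87 points (2.11 and 3.18 without sham 2). In these windows 5AZA and saline differed by -4.16 and -5.78. With such a site the values were 1.55 and 2.24 (0.111 and 0.370 without sham 2), and -0.543 and -1.05. At 80% or more, shores and remote windows differed by similar amounts, 1.32 and 1.00 points between saline and sham (0.792 and 0.496 without sham 2) and -4.11 and -3.92 between 5AZA and saline. The dense neighbours of all shores had site medians that averaged 1.67% to 2.60% in each library other than sham 2, where the range was 0.341% to 0.561%.

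Shores at genes of the kidney's development, of Notch and fibrosis signalling, of the methylation machinery and of blood cells were looked up by lists of gene names. edgeR's adjusted test called 0 shores of any list in either comparison, limma called 0 as well, and edgeR's counts at an unadjusted p under 0.05 stand with each list. Over all windows those counts were 10.4% between saline and sham and 23.2% between 5AZA and saline. The lists were written with earlier results of these data known, and they are described by counts alone. Of 39 Hox genes, which pattern the body axis, 10 had a placed start and 2 had shores, Hoxd13 and Hoxa13, with 0 of 3 at an unadjusted p under 0.05 in either comparison. The shore directly upstream of Hoxd13 stood at 39.2% and 40.9% in saline, 37.1% and 35.2% in sham, and 38.0% and 40.2% with 5AZA. The Hoxa13 shore had an own level of 2.24% and the lowest coverage of the 3, with 39 to 123 reads per library.

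Of 29 Notch pathway genes, 18 had a placed start and 6 had 9 shores, 2 of which had an unadjusted p under 0.05 between saline and sham and 0 between 5AZA and saline. Rfng encodes a Fringe glycosyltransferase that modifies Notch receptors. A shore with the starts of both Gps1 and Rfng placed beside it stood at 86.9% and 76.6% in saline, 65.2% and 65.7% in sham, and 84.9% and 77.5% with 5AZA. The sham libraries were the lowest there, with an unadjusted p of 0.00238 and an adjusted p of 0.193 by edgeR. The other shore of these genes stood at 95.7% and 96.5%, 92.8% and 92.6%, and 94.6% and 83.1% (edgeR unadjusted p = 0.188 between saline and sham). The shore of Numb, an inhibitor of Notch signalling, had an own level of 1.37% and, over all reads, 20.4% and 22.9% in saline, 27.2% and 26.9% in sham, and 27.7% and 25% with 5AZA (edgeR adjusted p = 0.455 between saline and sham). Of its 8 sites, 6 were under 5% and 2 at 30% or more, the highest at 94.4%. Its level over all reads thus depends on where the reads lay, and the part of this was not tested. The start of Gm31386 was placed there as well. The shores of Maml1 and Rbpj, a coactivator and the DNA-binding factor of the pathway, had own levels of 2.28% and 1.36%. The 2 shores of Hey2, a Notch target gene, had 27.4% and 25.4%, and the shore of Dtx1, a Notch regulator, 83.5%.

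Of 38 nephron transcription factor genes, 13 were placed and 8 had 12 shores, 7 of them at 20 to 80% and 0 at an unadjusted p under 0.05 in either comparison. A shore of Sall1, a zinc finger factor of kidney formation, stood at 69.4% and 58.2% in saline, 59.6% and 48.5% in sham, and 59.2% and 54.1% with 5AZA, and the groups overlapped in both comparisons. The shore of Pax2, a paired box factor of kidney formation, stood at 43.6% and 41.8%, 41.7% and 33.0%, and 40.8% and 38.9%. Of 44 fibrosis and TGF-beta genes, 16 were placed and 9 had 11 shores, with 0 at an unadjusted p under 0.05 in either comparison. The Smad6 shore, of a gene for an inhibitory Smad, stood at 34.0% and 37.0% in saline, 28.6% and 29.4% in sham, and 29.9% and 32.4% with 5AZA. The Tgfb1 shore had an own level of 1.49%. The shore beside the dense window with the starts of the collagen genes Col4a1 and Col4a2 had 0.967%.

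Of 17 genes of the methylation machinery, 13 were placed and 3 had 1 shore each, at 20 to 80%, with 0 at an unadjusted p under 0.05 between saline and sham and 1 between 5AZA and saline. The shore of Dnmt3b, a de novo methyltransferase, stood at 84.2% and 79.4% in saline, 78.8% and 83.3% in sham, and 74.6% and 70.8% with 5AZA, with an unadjusted p of 0.0417 and an adjusted p of 0.197 by edgeR for 5AZA against saline. The shore of Dnmt1, the maintenance methyltransferase, stood at 51.7% and 49.6%, 48.2% and 44.7%, and 55.0% and 48.9%. Of 27 blood cell factor genes, 14 were placed and 4 had 7 shores, with 1 at an unadjusted p under 0.05 between saline and sham and 2 between 5AZA and saline. A shore downstream of Runx3, a transcription factor of lymphocytes, stood at 50.3% and 51.9% in saline, 39.7% and 38.6% in sham, and 43.4% and 43.9% with 5AZA. Both saline libraries were above the other 4 there, with edgeR unadjusted p of 0.00412 and 0.0387 and adjusted p of 0.226 and 0.190 for the 2 comparisons. Shores of the other 3, Cebpb, Gata2 and Irf5, had own levels between 15.3% and 83.7%.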

How the data were processed

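Reduced representation bisulfite sequencing was analysed from 6 kidney libraries, 2 in each of 3 groups. The deposited files list CpG sites with the count of covering reads and the count of methylated reads, and the fraction methylated follows from them; per the submitters' processing notes Bowtie and build mm9 were used. The sources used here do not name the methylation caller, read filters or any removal of duplicates. The files hold methylation only, so the tissue label was not checked by marker genes. Coordinates are printed 1-based.

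Sites with at least 10 reads in all 6 libraries (941962 of 2128953 seen in any) were summed in windows of 1000 bp with 3 or more sites. edgeR 4.0.16 (quasi-likelihood test, R 4.3.3) was fitted to methylated and unmethylated counts of all 89674 windows and all 6 libraries, with an intercept per library, and adjusted by Benjamini-Hochberg at 0.05. limma 3.58.1 on log2 ratios was an alternative. Class means were compared by a two-sided exact permutation test over libraries, where 0.33 is the smallest p. With no mm9 annotation in use, RefSeq promoters of 300 bases were placed by CpG spacing (at least 8 matched sites, 9411 of 15382 with enough CpG sites), and 80 matched a wrong chromosome when searched there.

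The shores, gene lists and tests were chosen with earlier results of these data known. Named shores are the 5 widest rises and falls among those that passed without overlap of libraries, filled up by the smallest p, and shores of at most 6 genes of each list. Other shores that passed, Smyd2 and Eef2 among them, were named after their values were seen. Alternatives were other coverage minimums, other limits of the rule, limma, subsets of libraries or sites, and each library left out in turn.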

Additional observations from a re-analysis of the deposited data

How the results depend on the processing

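The count of shores that differed between 5AZA and saline moved with the processing. It was 19, and 12 with a coverage minimum of 20, 7 among shores directly beside the dense window, 11 beside dense windows of 30 or more sites, 8 with a difference of at least 10 points, and 2 with only the 4 libraries compared. It was 0 with limma, 0 without candidate fragment-end sites (368 at an unadjusted p under 0.05) and 0 without sites of 30% or more in windows of median under 5% (382), an alternative chosen after seeing the data; the cause was not tested. With the replicate block it was 112; the labels do not say that equal numbers mark shared animals, and the deviations of equally numbered saline and 5AZA libraries correlated at 0.208 over 4227 shores. Sham 2 carries no number, so no such fit was made between saline and sham. Leaving out 1 library gave counts of 0 to 15. The coverage minimum of 5 gave 21, of which 19 were the same shores. Between saline and sham the count was 0 under every alternative run (150 to 342 at an unadjusted p under 0.05 by edgeR or limma). The mean difference over all reads between 5AZA and saline in shores under 5% ran from -0.516 to 0.0755 points with 1 library left out, turning sign without 5AZA 1. The shore at chr15:100252001-100253000, which did not pass, reversed (adjusted p 0.6045 by edgeR) without sites of 30% or more in windows of median under 5%. Mean differences between saline and sham kept their sign without sham 2 but shrank, from 1.90 to 0.691 points over all shores. Depth limits sham 2 most, with a median of 157 reads per shore.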
